A study of Mus musculus with 16 samples.

Results

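A set of 10 genes of prostaglandin synthesis and reception were followed: the cyclooxygenases Ptgs1 and Ptgs2, the terminal synthases Ptges, Ptgis, Ptgds and Tbxas1, and the receptors Ptger2, Ptger3, Ptger4 and Ptgir. They were taken by symbol, and all 10 of them are among the 54838 genes of the count table. RNA was sequenced from spleens of C57BL/6 mice in 16 samples. Each of 8 numbers, 4 male and 4 female, has 1 size-selected sample and 1 whole spleen sample. The size-selected samples are the cells left on a strainer after mincing, enzyme digestion and red cell lysis, and their labels name spleen glia as the source. The preparation of whole spleen is not described separately, and the labels give neither ages nor any allele or treatment beyond the strain. Nothing in the labels says whether 1 number is 1 animal, so the p-values below measure the spread between these samples. The question the design poses is which genes are enriched in the size-selected cells over whole spleen.

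Prostaglandins are lipid signals made from arachidonic acid. A phospholipase or lipase frees the acid, a cyclooxygenase turns it into an unstable common precursor, and a terminal synthase converts that precursor into prostaglandin E, D or F, prostacyclin or thromboxane. Each product acts on its own G protein-coupled receptors and is then taken up by cells and oxidised. In the spleen and other organs, prostaglandins regulate vessel tone, platelet aggregation, fever and the activity of immune cells. Sympathetic nerves, whose fibres the glia of the spleen accompany, are among the cells on which prostaglandin E is known to act, through the receptor encoded by Ptger3.

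Totals ran from 13119992 to 19944440 estimated counts in the size-selected samples and from 12153770 to 16282454 in whole spleen. The labelled glia could be checked with 6 marker genes. Of these, 5 passed the count filter, each through its size-selected counts, so the check is a description. The summed glial level was 45.7 to 340 CPM (estimated counts relative to library totals scaled by TMM) in size-selected samples against 0.622 to 4.33 CPM in whole spleen. Marker sums of several other cell types were higher as well. They were 1003 to 3484 CPM for 6 fibroblast markers (4.67 to 55.6 CPM in whole spleen), 651 to 3259 CPM for 5 smooth muscle and pericyte markers (5.88 to 66.4 CPM), 598 to 1447 CPM for 5 endothelial markers (76.5 to 177 CPM) and 2900 to 6589 CPM for 6 macrophage markers (1348 to 2527 CPM). The B cell sum went the other way, from 5072 to 6369 CPM in whole spleen to 824 to 3109 CPM. Whole spleen sample 427 had the highest fibroblast, smooth muscle, endothelial, glial and macrophage sums of its group. In bulk RNA, more cells of a type and more RNA per cell cannot be told apart, and the part of these cell types in the results below was not tested.

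Of the 10 genes, 8 rose in the size-selected samples, none fell, Ptger4 did not pass the test and Ptgds was not tested because its counts were too low. A gene was called at an adjusted p under 0.05 in edgeR's quasi-likelihood test with Benjamini-Hochberg adjustment over 14510 genes. Of all genes tested 67.9% were called, 37.5% higher and 30.4% lower, so a rise is common in this comparison. With the number as a replicate block it was also 8 genes (38.1% of all genes higher), with the constants described below divided out 7 (37.6%), and with a minimum rise of 1 on the log2 scale 6 (24.8%), with Tbxas1 and Ptger2 below it. The median log2 fold change of the 9 genes tested was 1.67, against 0.05 over all genes tested. Ptges and Ptger3 passed the filter through their size-selected counts, with at most 16 counts in any whole spleen sample, so this count, this median and their own fitted values are descriptions. For Ptgs2, Ptges and Ptgir the lowest size-selected sample lay above the highest whole spleen sample, which held for 23.3% of all genes tested.

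**Figure D1:**
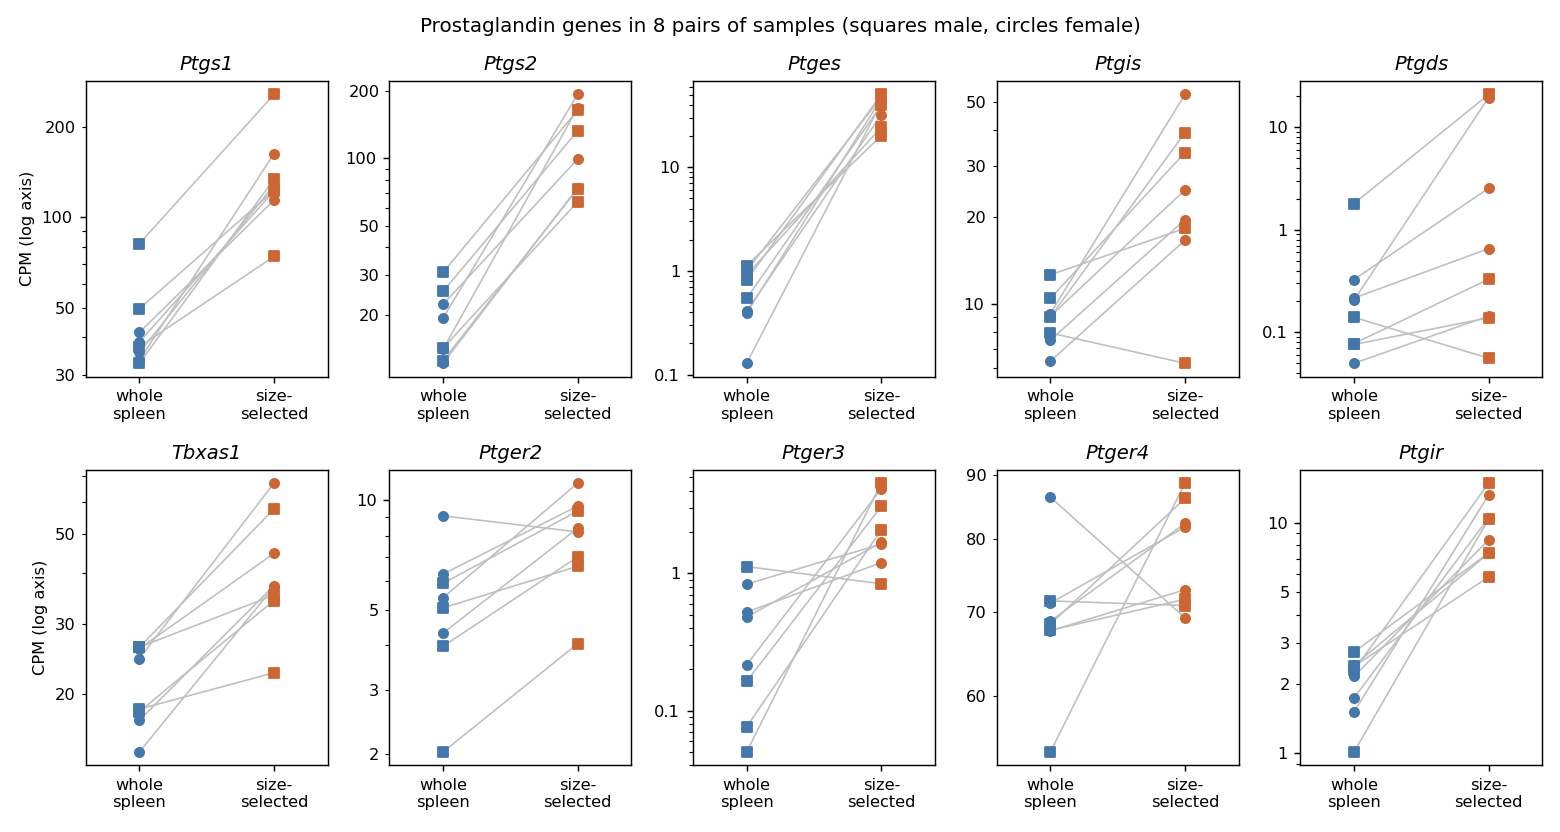
CPM of the 10 genes on log axes, 1 panel a gene with its own scale; grey lines join the whole spleen and size-selected samples of 1 number, and a CPM of 0 is drawn at 0.05. Ptgs2, Ptges and Ptgir separate fully, Ptgs1 is crossed only by whole spleen sample 427 at 81.8 CPM, and Ptger4 covers nearly the same range in both groups.

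The promoters of the 2 cyclooxygenase genes and of Ptges are shown because these 3 genes, 2 successive steps of prostaglandin E synthesis, rose together. Each is 280 bases from RefSeq on GRCm38.p6, 250 before the annotated start and 30 from it, 5′ to 3′ on the gene's strand. Capitals mark matches to any of 6 motifs searched on both strands. These were the TATA box, spelled TATAAA, the GC box, spelled GGGCGG, the E-box, spelled CACGTG, the CRE half-site, spelled TGACG, the CCAAT box and the AP-1 site, spelled TGANTCA.
Ptgs1, chr2:36230176-36230455, plus strand: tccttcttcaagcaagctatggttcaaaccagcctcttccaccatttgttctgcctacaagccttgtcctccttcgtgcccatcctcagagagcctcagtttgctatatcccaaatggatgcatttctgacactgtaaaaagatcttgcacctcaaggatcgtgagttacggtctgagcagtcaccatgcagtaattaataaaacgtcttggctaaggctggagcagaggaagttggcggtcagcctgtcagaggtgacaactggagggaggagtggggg
Ptgs2, chr1:150099781-150100060, plus strand: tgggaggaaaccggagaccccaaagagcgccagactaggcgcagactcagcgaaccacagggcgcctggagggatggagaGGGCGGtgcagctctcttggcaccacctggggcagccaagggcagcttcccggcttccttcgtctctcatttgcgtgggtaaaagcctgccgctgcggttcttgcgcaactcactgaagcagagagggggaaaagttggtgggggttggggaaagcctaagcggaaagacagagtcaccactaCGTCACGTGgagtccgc
Ptges, chr2:30903268-30903547, minus strand: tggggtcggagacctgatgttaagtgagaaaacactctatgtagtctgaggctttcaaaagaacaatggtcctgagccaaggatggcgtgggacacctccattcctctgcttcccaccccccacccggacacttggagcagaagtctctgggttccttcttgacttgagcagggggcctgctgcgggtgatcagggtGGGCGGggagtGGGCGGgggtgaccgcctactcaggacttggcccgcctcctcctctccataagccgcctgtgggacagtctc
The Ptgs1 window held none of the 6 motifs. The Ptgs2 window held a GC box and, just past the annotated start, a CRE half-site (minus strand, bases 14 to 18 counted from 1 at that start) that overlaps an E-box (bases 17 to 22). The Ptges window held 2 GC boxes, 53 to 48 and 42 to 37 bases before the start. Over 32851 promoters of the same length, 34.7% held the GC box, 19.9% the CRE half-site, 6.79% the E-box, 36.1% the CCAAT box, 13.1% the TATA box and 7.46% the AP-1 site. Of the 9 of these genes with a promoter in the table, 5 held a GC box, 2 a CCAAT box, 2 an AP-1 site, and 1 each the other 3 motifs. A match is a run of letters and was not tested for binding.

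Both cyclooxygenases rose, Ptgs1 by 1.67 and Ptgs2 by 2.68 on the log2 scale. Ptgs1 (ENSMUSG00000047250, chr2:36230426-36252272, GRCm38, 3884 bases of exons) encodes the cyclooxygenase that most tissues make all the time and that platelets use for thromboxane. It was at 74.2 CPM in the lowest size-selected sample, 125 at the median and 256 in the highest, against 32.8, 37.9 and 81.8 CPM in whole spleen. The overlap of the groups came from whole spleen sample 427 alone, since the other 7 reached at most 49.7 CPM. The size-selected sample was the higher in 8 of 8 pairs. The log2 fold change was 1.67 (SE 0.23, adjusted p = 2.88e-06, edgeR), and 1.85 without whole spleen sample 427.

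Ptgs2 (ENSMUSG00000032487, chr1:150100031-150108227, 4580 bases of exons) encodes the cyclooxygenase that cytokines, growth factors and cell stress induce. Its CPM was 63.9 at the lowest, 116 at the median and 193 at the highest in size-selected samples, and 12.1, 16.8 and 30.9 in whole spleen. The groups did not overlap, and the lowest size-selected sample, 408, was at about double the highest whole spleen sample. The log2 fold change was 2.68 (SE 0.27, adjusted p = 6.57e-08, edgeR). Genes known to respond to tissue dissociation moved the same way: of 10 such genes, among them Fos, Jun and Egr1, 8 rose and 1 fell (37.5% and 30.4% of all genes tested), and their summed level was 4349 to 8571 CPM against 1812 to 2759 CPM. Their part in the Ptgs2 result was not tested.

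The balance of the cyclooxygenase transcripts is given as a description, since this ratio was chosen after the values were seen. The log2 ratio of Ptgs2 to Ptgs1 CPM within a sample averaged -0.24 ± 0.42 for size-selected samples and -1.23 ± 0.54 for whole spleen (SD, n = 8 each). It was higher in the size-selected sample of all 8 pairs, by 0.99 on average, although the 2 ranges overlapped (-0.75 to 0.39 and -1.98 to -0.37).

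Ptges had the largest fold change of the genes followed. Ptges (ENSMUSG00000050737, chr2:30889471-30929863, minus strand, 3931 bases of exons) encodes the inducible microsomal prostaglandin E synthase, which works together with the product of Ptgs2. Its RefSeq start, shown above, lies inside the gene model of GENCODE, which begins further upstream. In whole spleen it was close to absent, at 0.128 CPM at the lowest, 0.68 at the median and 1.12 at the highest, or 2 to 16 counts a sample. In size-selected samples it was at 20.2, 40.8 and 50.4 CPM. Every size-selected sample was at least an order of magnitude above every whole spleen sample. Its log2 fold change was 5.82 (SE 0.31), given as a description since the gene passed the filter through its size-selected counts. In the fit without a count filter it was 5.76 (SE 0.30, adjusted p = 2.67e-12, edgeR, over 28235 genes). The deposited size-selected values of Ptges are whole numbers multiplied by a constant of 0.659 to 0.789, found from the values and mentioned in no label. With the constant divided out, the size-selected counts become whole numbers from 447 to 1245 and the log2 fold change 6.23. The authors' deposited table gives Ptges a log2 fold change of 5.16 and mean TPM of 22.9 and 0.399.

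Of the other prostaglandin E synthases, 1 did not pass and 1 fell. Ptges2, a membrane-associated enzyme named after its values were seen, was at 21 to 36.4 CPM in size-selected samples and 19.8 to 28.9 CPM in whole spleen, a log2 difference of 0.04 (SE 0.12, adjusted p = 0.748, edgeR) whose sign changed with the processing. Ptges3, which encodes the cytosolic synthase also known as the HSP90 co-chaperone p23, fell by 0.42 on the log2 scale (SE 0.09, adjusted p = 3.87e-04, edgeR). Ratios within a sample, chosen after the values were seen, describe the difference and are no test of it. The log2 ratio of Ptges to Ptges2 was 0.46 ± 0.38 for size-selected samples and -5.16 ± 0.82 for whole spleen (SD, n = 8 each). That of Ptges to Ptges3 was -2.39 ± 0.56 and -8.47 ± 0.90 (SD, n = 8 each). Neither ratio overlapped between the groups.

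**Figure D2:**
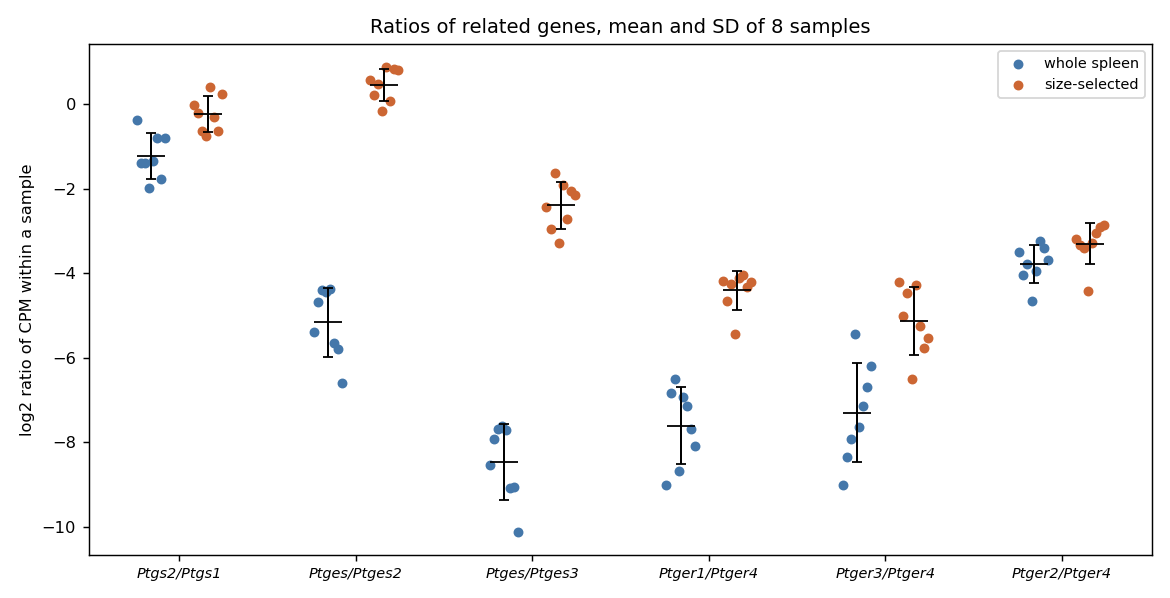
Log2 ratios of the CPM of gene pairs within each sample, whole spleen in blue and size-selected in orange, with the mean and SD of 8 samples in black. The ratios of Ptges to Ptges2 and Ptges3 and of Ptger1 to Ptger4 separate fully, and the ratio of Ptger2 to Ptger4 differs by 0.48 with overlapping ranges.

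Among the other terminal synthases, those for prostacyclin and thromboxane rose, and the prostaglandin D synthase rested on 2 samples. Ptgis (ENSMUSG00000017969, chr2:167191805-167240604, minus strand, 2567 bases of exons) encodes prostacyclin synthase, an enzyme of vessel walls whose product relaxes smooth muscle and blocks platelet aggregation. Its CPM was 6.23 at the lowest, 22.2 at the median and 53.2 at the highest in size-selected samples, and 6.33, 9.04 and 12.6 in whole spleen. Size-selected sample 408 lay below all whole spleen samples, while the other 7, from 16.6 CPM up, lay above all of them. With the constants divided out, sample 408 was at 7.54 CPM, within the whole spleen range. Ptgis rose by 1.55 on the log2 scale (SE 0.30, adjusted p = 1.88e-04, edgeR), and by 1.93 with the 2 constants its size-selected values carry divided out. Sample 408 also had the lowest fibroblast (1003 CPM), smooth muscle (651 CPM) and endothelial (598 CPM) sums of the size-selected group and the highest B cell sum (3109 CPM). Whether these move with Ptgis for a shared reason was not tested.

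Tbxas1 (ENSMUSG00000029925, chr6:38875404-39084585, 9094 bases of exons) encodes thromboxane synthase, found in platelets and macrophages. It was at 22.6 CPM at the lowest, 37.1 at the median and 67.0 at the highest in size-selected samples, against 14.4, 21.5 and 26.2 CPM. Sample 408 was the only size-selected sample within the whole spleen range, and the size-selected sample was higher in 8 of 8 pairs. Tbxas1 rose by 0.97 on the log2 scale (SE 0.19, adjusted p = 2.15e-04, edgeR). Of the markers of these cell types, 4 of 6 for macrophages and 5 of 6 for megakaryocytes and platelets were called higher. Of all genes tested 37.5% were. The summed megakaryocyte and platelet level was 162 to 739 CPM against 132 to 265 CPM. The part of these cell types in the Tbxas1 result was not tested.

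Ptgds (ENSMUSG00000015090, chr2:25466709-25470046, minus strand, 1649 bases of exons) encodes the lipocalin-type prostaglandin D synthase, a carrier and enzyme abundant in the meninges of the brain. It did not pass the count filter. Its CPM was 0.056 at the lowest, 0.491 at the median and 20.7 at the highest in size-selected samples, and 0, 0.173 and 1.80 in whole spleen. Size-selected samples 427 (20.7 CPM) and 445 (19.3 CPM) stood far above the others, the next being 447 at 2.53 CPM. In whole spleen, sample 427 was highest as well, with 22 counts where no other sample had more than 5. Without a count filter, edgeR gave it a rise of 3.88 on the log2 scale (SE 1.08, adjusted p = 0.00549, over 28235 genes, of which 25.3% were called higher). Without numbers 427 and 445 it was 2.08 and no longer passed (adjusted p = 0.0703). The authors' deposited table lists Ptgds with a log2 fold change of 3.90 and mean TPM of 14.6 and 0.69. The mesothelial marker sum was 126 CPM in size-selected sample 445, the highest of its group, and 56.1 CPM in sample 427. It was 82.9 CPM in sample 447, 79.6 CPM in sample 460 and 59.8 CPM in sample 407. Ptgds was at 2.53, 0.144 and 0.329 CPM in samples 447, 460 and 407. The part of mesothelial cells in the Ptgds values was not tested.

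Of the 4 receptor genes followed, 3 were called higher, as were 37.5% of all genes tested, and Ptger4 was not. Ptger3 passed the filter through its size-selected counts, so this count is a description. Ptgir (ENSMUSG00000043017, chr7:16906490-16910905, 3334 bases of exons) encodes the prostacyclin receptor, which raises cyclic AMP. Its CPM was 5.83 at the lowest, 9.42 at the median and 14.9 at the highest in size-selected samples, and 1.01, 2.22 and 2.75 in whole spleen. The groups did not overlap, and the log2 fold change was 2.26 (SE 0.23, adjusted p = 9.85e-08, edgeR). The synthase gene Ptgis and the receptor gene Ptgir of the prostacyclin branch thus both rose.

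Ptger3 (ENSMUSG00000040016, chr3:157566892-157645888, 5688 bases of exons) encodes a prostaglandin E receptor that lowers cyclic AMP and is known from sympathetic nerve endings and smooth muscle. It was low everywhere, at 0.84 CPM at the lowest, 1.88 at the median and 4.54 at the highest in size-selected samples, and 0, 0.348 and 1.12 in whole spleen, where counts ran from 0 to 16. It was higher in 7 of 8 pairs. In number 435 the order was the reverse, and this number holds both the lowest size-selected and the highest whole spleen value. Its log2 fold change was 2.44 (SE 0.53), likewise a description. Without a count filter it was 2.38 (SE 0.53, adjusted p = 8.14e-04, edgeR, over 28235 genes).

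Ptger2 and Ptger4 encode the prostaglandin E receptors that raise cyclic AMP, both widely present on immune cells. Ptger2 (ENSMUSG00000037759, chr14:44988195-45003820, 5193 bases of exons) was at 4.03 CPM at the lowest, 8.28 at the median and 11.2 at the highest in size-selected samples, and 2.03, 5.23 and 9.07 in whole spleen. It was higher in 7 of 8 pairs, with much overlap. The rise of 0.61 on the log2 scale (SE 0.25) passed narrowly (adjusted p = 0.0362, edgeR). With the number as a replicate block the adjusted p was 0.00424. Without the block the call was lost with the constants of other genes divided out (adjusted p = 0.0534), without a count filter (0.0744, or 0.0575 also without number 427), without whole spleen sample 427 (0.0526), and without any of the numbers 407 (0.0679), 408 (0.0678), 436 (0.0849), 447 (0.0642) or 460 (0.0969).

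Ptger4 (ENSMUSG00000039942, chr15:5206661-5244187, minus strand, 6648 bases of exons) had nearly the same level in both groups, at 69.2 CPM at the lowest, 77.3 at the median and 88.7 at the highest in size-selected samples, and 54.1, 68.6 and 86.4 in whole spleen. The difference of 0.17 on the log2 scale (SE 0.09) did not pass (adjusted p = 0.104, edgeR). Under library totals without TMM scaling, which move the median of all genes by 0.13, Ptger4 passed at 0.29 (adjusted p = 0.0169), and likewise without number 445 at 0.27 (adjusted p = 0.0126) or without numbers 427 and 445 (adjusted p = 0.0289, or 0.0475 with no count filter). A gene on the opposite strand, Ttc33, shares 82 bases of exons with Ptger4, and an opposite-strand pseudogene, Gm15937, shares 1015. Since the sources used here do not say whether counting used strand, reads of such partners may not be told apart; Ptgs1, Ptgis, Tbxas1 and Ptger2 also share 144 to 246 bases each with opposite-strand noncoding models.

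Ratios within a sample set the prostaglandin E receptors against each other. The fourth, Ptger1, acts mainly through calcium and was taken from the list of other pathway genes. It was at 1.90 to 4.63 CPM in size-selected samples and 0 to 0.653 CPM in whole spleen, where it had at most 8.09 estimated counts in a sample and 0 in 2. Like Ptges and Ptger3 it passed the filter through its size-selected counts, so its fitted log2 fold change of 3.63 (SE 0.46) is a description, as are the ratios to Ptger4, chosen after the values were seen. Relative to Ptger4, Ptger1 was higher by 3.21 on the log2 scale in size-selected samples, without overlap and in 8 of 8 pairs. Ptger3 was higher by 2.16 on average, in 7 of 8 pairs. Ptger2 was higher by 0.48 on average, in 8 of 8 pairs, with ranges that overlapped.

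Levels of different genes can be compared only roughly, per length of exon. The length used is that of all annotated exons of a gene merged. It can exceed the length of the transcripts present, so the order of genes depends on it. With the constants divided out, the median CPM per kilobase in size-selected samples was 30.5 for Ptgs1 (18.2 to 61.7), 23.9 for Ptgs2 (13.3 to 39.7), 13.2 for Ptges (6.63 to 16.7), 11.4 for Ptgis (2.94 to 27.1) and 10.97 for Ptger4 (9.75 to 12.6). It was 3.86 for Tbxas1 (2.38 to 6.93), 2.68 for Ptgir (1.65 to 4.19), 1.501 for Ptger2 (0.735 to 2.02), 0.348 for Ptgds (0.0321 to 14.2) and 0.313 for Ptger3 (0.140 to 0.758). Neighbours in this order overlapped, except Ptger4 and Tbxas1. On the values as deposited, Ptges (10.4) and Ptgis (8.65) come below Ptger4 (11.6). In whole spleen Ptger4 led with 10.3 CPM per kilobase (8.14 to 13.0), overlapping Ptgs1 at 9.76 (8.45 to 21.1). Then came Ptgs2 at 3.66 (2.65 to 6.75), Ptgis at 3.52 (2.47 to 4.91), Tbxas1 at 2.36 (1.58 to 2.88) and Ptger2 at 1.01 (0.391 to 1.75). Ptgir at 0.666 (0.303 to 0.824), Ptges at 0.173 (0.0327 to 0.285), Ptgds at 0.105 (0 to 1.09) and Ptger3 at 0.0612 (0 to 0.197) closed the order. There the neighbours Ptgs1 and Ptgs2, and Ptgir and Ptges, did not overlap. Among the prostaglandin E receptors Ptger4 was the most abundant per length in both groups.

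The genes varied together only in part among the size-selected samples. In sample 408 all 10 genes were below their own mean over the 8 samples, although Ptger3 was nearly at it (-0.006 on the log2 scale). In sample 435 9 of 10 were below it, while in samples 407, 427 and 460 8 of 10 were above it. The share of all genes tested that lay below or above their mean in these samples was not computed, so these counts are descriptions. Ptgs1 was highest in sample 427 (256 CPM), as were Ptges and Ptgir, but Ptgs2 (193 CPM), Ptgis (53.2 CPM), Tbxas1 (67.0 CPM) and Ptger2 (11.2 CPM) were highest in sample 460. Sample 427 had the highest smooth muscle (3259 CPM) and endothelial (1447 CPM) sums and the lowest B cell sum (824 CPM) of its group, and sample 460 the highest macrophage sum (6589 CPM). The ratio of the highest to the lowest size-selected sample was 1.28 for Ptger4 and 2.49 to 8.54 for the other 8 genes that were tested.

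**Figure D3:**
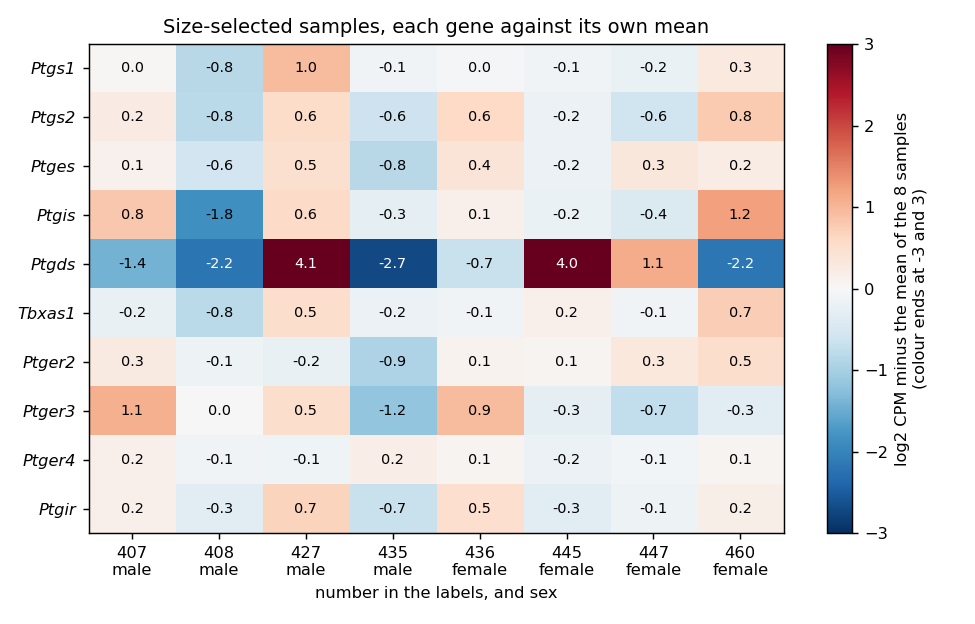
Log2 CPM of the 10 genes in the 8 size-selected samples, each gene minus its mean over these samples; colour runs from blue (below) to red (above). Sample 408 is below the mean for all 10 genes, with Ptger3 nearly at it (-0.006), and Ptgds departs from the rest with its 2 high samples 427 and 445.

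Between sexes none of the genes passed. In size-selected samples 0 of the 9 genes tested were called, where 0.0397% of all genes were, and none had an unadjusted p under 0.05 (edgeR; DESeq2 called 0 as well). In whole spleen it was 0 of 8, where 0.194% of all genes were called, with none under an unadjusted 0.05 (edgeR; DESeq2 0). For the interaction of sex and fraction, 0 of 10 were called, as were 0% of the 15760 genes tested, although 744 had an unadjusted p under 0.05 (edgeR). With the replicate block 3 genes of the table were called (0.019%) and 935 had an unadjusted p under 0.05, and DESeq2 called 3 with 867 under it. Limma-voom called 0 with 576 under it. The smallest p among the 10 was that of Ptges, whose log2 fold change between fractions was 1.15 larger in females (SE 0.57, unadjusted p = 0.0626, adjusted p = 1.00, edgeR). With the block the difference was 1.29 (unadjusted p = 0.0462, adjusted p = 0.831, edgeR). Female and male size-selected samples had 41.9 ± 6.99 and 33.6 ± 14.0 CPM of Ptges (SD, n = 4 each), and whole spleen 0.485 ± 0.371 and 0.849 ± 0.240 CPM (SD, n = 4 each).

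Around these genes, most of the listed prostaglandin pathway rose. Of 20 further genes for synthesis, transport, breakdown and reception, 17 passed the filter, of which 12 were called higher, 2 lower and 3 not called. Their median log2 fold change was 1.23. Of all genes tested 37.5% were called higher and 30.4% lower, and Ptger1 passed the filter only through the group where it is high, so the count is a description.

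Of the genes that supply arachidonic acid, Mgll, monoacylglycerol lipase, rose from a median of 11.5 CPM in whole spleen to 82.3 CPM, or by 2.78 on the log2 scale (SE 0.25, adjusted p = 1.50e-08, edgeR). Pla2g4a, the cytosolic phospholipase that releases the acid from membranes, rose from 5.22 to 21.2 CPM at the median, by 1.93 (SE 0.26, adjusted p = 3.36e-06). Neither gene overlapped between groups. Daglb, a diacylglycerol lipase, rose by 1.32 (adjusted p = 4.84e-07), and Pla2g6, a calcium-independent phospholipase named after its values were seen, did not pass (0.38, adjusted p = 0.0577). Pla2g6 passed without whole spleen sample 427 (adjusted p = 0.0297), without number 435 (0.0404) or 447 (0.0483), on library totals (0.0175) and in limma-voom (0.0442).

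Downstream of the cyclooxygenases, the genes linked to prostaglandin F split. Prxl2b, a prostamide and prostaglandin F synthase, rose by 1.23 (SE 0.20, adjusted p = 2.41e-05, edgeR), and Cbr1, a carbonyl reductase that can turn prostaglandin E into F, by 0.48 (SE 0.12, adjusted p = 0.00172, edgeR). Akr1b3, an aldose reductase with prostaglandin F synthase activity, fell by 0.92 (SE 0.08, adjusted p = 5.62e-09, edgeR). Its size-selected values carry 2 of the constants, and with these divided out the fall was smaller, with a log2 fold change of -0.55 (adjusted p = 1.74e-06). Hpgds, the prostaglandin D synthase of blood cells, was at 12.8 to 27.7 CPM in size-selected samples and 14.95 to 23.1 CPM in whole spleen (0.03, adjusted p = 0.844, with a sign that changed with the processing).

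All 5 genes of transport and breakdown were called higher, as were 37.5% of all genes tested. Slco2a1, the transporter that takes prostaglandins up into cells, was at 202 CPM at the lowest, 372 at the median and 748 at the highest in size-selected samples, against 6.69, 9.10 and 39.4 CPM in whole spleen. The highest whole spleen value was that of sample 427. The log2 fold change of Slco2a1 was 4.98 (SE 0.40, adjusted p = 4.56e-09, edgeR), and 5.48 without that sample. That sample also had the highest endothelial (177 CPM), fibroblast, smooth muscle, mesothelial, glial, macrophage, erythroid and mast cell sums of whole spleen, whose part in the Slco2a1 values was not tested. Hpgd, the dehydrogenase that inactivates prostaglandins, rose by 1.30 (SE 0.26, adjusted p = 2.20e-04), Abcc4, an exporter of prostaglandin E, by 1.25 (adjusted p = 7.56e-06), and the reductases Ptgr2 and Ptgr1, which act on the oxidised products, by 1.24 and 0.85 (adjusted p = 2.18e-07 and 6.73e-04).

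Of the 5 other prostanoid receptor genes, Ptger1 is described above, and Tbxa2r, the thromboxane receptor of platelets and smooth muscle, rose by 0.74 (SE 0.14, adjusted p = 1.14e-04, edgeR). The 3 that did not pass the filter were named after their values were seen. Ptgfr, the prostaglandin F receptor, was at 0.415 to 9.85 CPM in size-selected samples and 0 to 0.61 CPM in whole spleen. The prostaglandin D receptor genes were at the limit of detection, with at most 3.45 estimated counts of Ptgdr and 2.03 of Ptgdr2 in any sample.

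For the sister branch of arachidonic acid metabolism, of 10 leukotriene and lipoxygenase genes, 8 passed the filter, 3 were called higher, 3 lower and 2 not, with a median log2 fold change of -0.18. These shares are near those of all genes tested (37.5% higher and 30.4% lower), so the counts say nothing particular about the branch. Ltc4s, leukotriene C synthase, rose by 2.77 (SE 0.40, adjusted p = 5.74e-06, edgeR), and Alox12, the lipoxygenase of platelets, by 2.66 (adjusted p = 3.37e-07). Cysltr1, a receptor of cysteinyl leukotrienes and the third counted as higher, passed the filter through its size-selected counts, so its log2 fold change of 1.25 is a description. Without a count filter it was 1.21 (adjusted p = 0.0271, edgeR). The genes that begin leukotriene synthesis went down: Alox5, the lipoxygenase, fell by 0.94 (adjusted p = 0.0171) and its activating protein gene Alox5ap by 0.81 (adjusted p = 3.78e-04). Ltb4r1, the leukotriene B receptor of neutrophils, fell by 1.53 (SE 0.29, adjusted p = 1.39e-04), and its groups did not overlap. Neutrophil markers moved alongside, with 4 of 5 called lower and summed levels of 91.2 to 448 CPM against 384 to 1086 CPM. Their part was not tested. The call of Alox5 was lost in 5 alternatives, without number 427 (adjusted p = 0.0666, or 0.102 with no count filter), without 436 (0.0539) and without 427 and 445 (0.0547, or 0.083 with no count filter). That of Cysltr1 was lost in 4, without number 435 (0.0523), without 427 and 445 (0.0932, or 0.112 with no count filter) and without 427 with no count filter (0.0542). Lta4h, leukotriene A hydrolase, did not pass as deposited (-0.06, adjusted p = 0.526) and was called higher with its constant divided out (0.18, adjusted p = 0.0378). With the replicate block added to that fit the call was lost (0.178, adjusted p = 0.0684, edgeR).

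**Figure D4:**
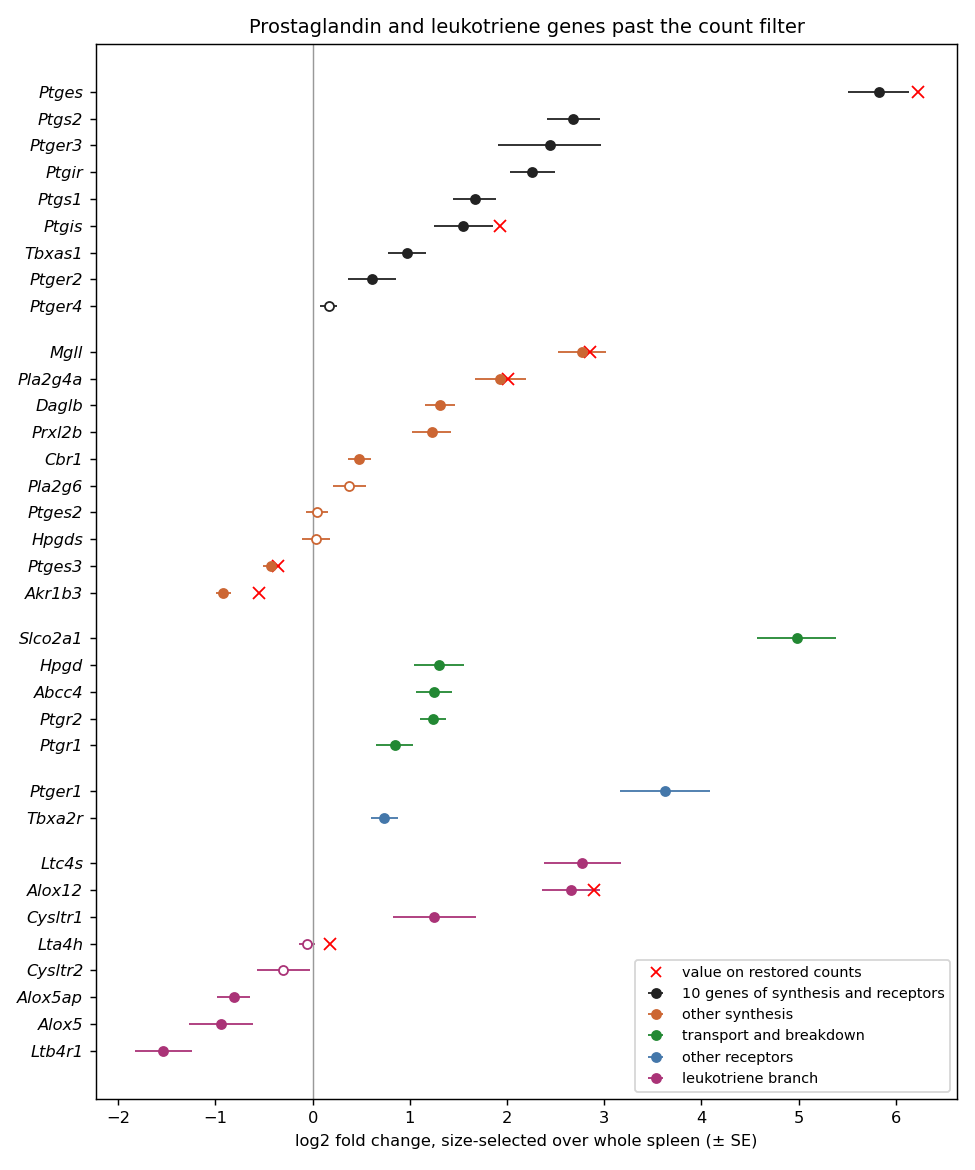
Log2 fold changes, size-selected over whole spleen, with SE, for the prostaglandin and leukotriene genes past the count filter; filled points passed at an adjusted p under 0.05, and red crosses give the value with the multiplying constants divided out. Ptges at 5.82 and Slco2a1 at 4.98 lie farthest to the right, and Ltb4r1 at -1.53 farthest to the left.

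Finally, the genes whose profile over the 16 samples was nearest to those of the tested genes were listed, by the root mean square difference of log2 CPM after each gene's mean was subtracted. Ptgs1 was nearest to Axl (0.20) and Abcg3 (0.22). Ptges was nearest to Wwtr1 (0.34) and Amotl2 (0.39), with log2 fold changes of 5.55 and 5.41, and Ptgis to Gbp8 and Flna (0.43 each). Tbxas1 was nearest to Ccrl2 (0.20) and Man2b2 (0.22), Ptgir to Tlcd2 (0.25) and Tom1l2 (0.26), and Ptger2 to Sgpl1 (0.26) and Apaf1 (0.27). Ptger4 had the closest neighbours, Nudcd3 (0.08) and Actr3 (0.10), and Ptger3 the most distant ones, Zfp111 (0.64) and Fads1 (0.67). Of the genes followed, the most alike were Ptgs1 and Ptgir (0.48) and Ptgs1 and Tbxas1 (0.48). All these values share the same libraries and the same difference between groups.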

How the data were processed

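The deposited table holds expected counts per gene, which the authors made with RSEM after Trim Galore and STAR on mm10, per the submitters' processing notes, whose order and versions are not given. The authors' deposited table of their own comparison gives a log2 fold change, its adjusted p-value and mean TPM per group, per the file headers; its 2201 genes all have values of 3.50 or more there. That table also has a mean signal per gene, a test score and mean FPKM by the authors, per the file headers, which were not analysed here. Groups, sexes and numbers come from the labels.

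After rounding to whole numbers, edgeR 4.0.16 (R 4.3.3) fitted the group as the only term by quasi-likelihood; genes had to pass filterByExpr at a minimum count of 10, and TMM set the scaling. An SE is the log2 fold change over the square root of F. Log2 CPM for ratios and profiles used a prior count of 2. Positions and exon lengths are from GENCODE M21 on GRCm38, where 54723 of 54838 gene identifiers were found.

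In the size-selected columns the deposited values of 3898 genes are 2-decimal values multiplied by 1 to 3 constants per column, found from the values alone; of the 10 genes, Ptges, Ptgis and Ptgds carry 1 or more. The main values are as deposited, and dividing the constants out is an alternative. Further alternatives were the tools DESeq2 1.42.0 and limma 3.58.1 (voom), RLE scaling or library totals, other filters, a minimum fold, sex or the replicate number (block) as a term, and leaving out samples. The edgeR fits of fraction, sex and interaction, with the replicate block for fraction and interaction, were tested on simulated data. So were the DESeq2 and limma-voom fits of fraction and the search for constants. The other alternatives were not simulated.

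Samples are paired by number: their deviations from group means correlated over genes with r = 0.12 to 0.375 in the 8 same-numbered pairs, against a mean of -0.03 for other numbers. The pairing comes from the number that the labels share between 1 sample of each group.

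The genes followed, the lists and the alternatives were chosen with earlier results of these data known. Of listed pathway genes, those called and the 3 largest rises and falls per list were to be named, and for profiles the 2 nearest genes; those of Ptgs2 are not reported here.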

Additional observations from a re-analysis of the deposited data

Results flagged for a closer look

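In 20 groups of 8 values, the 10 genes in each fraction, 2 had a sample standing apart by a gap of more than 0.526 of the range on the log2 CPM scale, where chance gives about 1 in 20. Both were whole spleen sample 427. For Ptgs1 it was at a log2 CPM of 6.36, with the other 7 between 5.04 and 5.64. For Ptgds it was at 0.95, with the others between -2.91 and -1.12, a range that rests on 0 to 5 counts. The same sample had the highest fibroblast, smooth muscle, endothelial, glial, mesothelial, macrophage, erythroid (323 CPM) and mast cell and basophil (44.6 CPM) marker sums of whole spleen, and the lowest B cell sum (5072 CPM). The part of these in its Ptgs1 and Ptgds values was not tested.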

How the results depend on the processing

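The 8 calls became 6 to 9 of the genes followed over 25 alternatives. Ptgs1, Ptgs2, Ptges, Ptgis, Tbxas1, Ptger3 and Ptgir kept their direction and call in all 24 refits of each, but Tbxas1, at 0.97, is not among the 6 called with a minimum log2 fold change of 1. Genes called over the whole table fell from 9855 to 4844 with a minimum log2 fold change of 1, and other pathway genes from 14 to 9. The replicate block (10076 genes called) changed no call of the 10 genes in the fraction comparison. Sex calls over the table moved most: DESeq2 gave 22 against 6 in size-selected samples, and in whole spleen 518 (DESeq2) or 273 (no filter) against 26, with 7 to 261 when each number was left out, 261 without number 427. The interaction gave 3 with DESeq2, 3 with the replicate block and 0 to 1 (without number 445) when each number was left out. The cause was not tested. Ptges2, at 0.04 and not called, changed sign with no filter (-0.0151), with restored counts (-0.0092, or -0.0206 with the block), without whole spleen sample 427 (-0.0083) and without numbers 427 and 445 (-0.1717). It ran from -0.078 (without number 427) to 0.0917 when each number was left out. With no filter it was -0.0264 with the block, -0.065 without number 427, -0.0264 without number 445 and -0.1519 without both. Hpgds, at 0.03 and not called, changed sign with no filter (-0.0254), with restored counts (-0.0202, or -0.0378 with the block) and without numbers 427 and 445 (-0.0936), and ran from -0.0434 (without number 427) to 0.0741 when each number was left out. With no filter it was -0.0436 with the block, -0.029 without number 427, -0.0107 without number 445 and -0.0726 without both. Lta4h turned from -0.06 to 0.0634 on library totals, 0.1839 with restored counts and 0.178 with these and the block. Depth limits Ptgds, Ptger3 and the whole spleen level of Ptges, which rest on at most 22 counts in whole spleen.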
